A study of Mus musculus with 16 samples.

Results

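The genes described here are 9 core members of the hedgehog pathway, measured in newborn mouse ovaries that lacked Runx1, Foxl2 or both. They are the ligands Dhh, Ihh and Shh, the receptor Ptch1 and the transducer Smo, the transcription factors Gli1, Gli2 and Gli3, and the inhibitor Hhip. Members were taken by symbol from 18193 genes that had at least one probe set (a group of short probes to one transcript) mapped to that gene alone. The 9 members had 21 probe sets among the 45101 on the array. Each gene was read from the probe set with the highest mean over all arrays.

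Expression was measured in 16 XX ovaries collected on the day of birth (P0), with 1 array per ovary and 4 ovaries per genotype. DKO ovaries were Runx1-/f, Foxl2-/- and carried 1 copy of the Sf1-Cre transgene (Sf1-Cre+/Tg). Foxl2 KO ovaries were Runx1+/f and Foxl2-/- without Cre (Sf1-cre+/+), and Runx1 KO ovaries were Runx1-/f and Foxl2+/+ with Cre (Sf1-cre+/Tg). Control ovaries were Runx1+/f, Foxl2+/+ and Sf1-cre+/+, so the ovaries of all 4 groups carried a floxed Runx1 allele (f). Cre is driven by the promoter of Sf1 (Nr5a1), which is active in somatic cells of the gonad, while Foxl2 was null in every cell. Loss of Runx1 and presence of the transgene cannot be told apart, because the Runx1 KO and DKO ovaries had both and the other groups neither. The ovaries came from one type of cross on a mixed background, and each was freed of the mesonephros before RNA isolation.

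Hedgehog ligands are secreted proteins that bind PTCH1 on neighbouring cells. Binding releases SMO, and SMO turns the GLI proteins into activators of transcription. Ptch1, Gli1 and Hhip are themselves transcribed in response, so their mRNA serves as a readout of signalling in many tissues. In the fetal testis DHH comes from Sertoli cells and acts on the precursors of Leydig cells. In the mouse ovary DHH and IHH come from granulosa cells and act on the surrounding stroma, where theca cells arise. RUNX1 and FOXL2 are both made in pre-granulosa cells, the somatic lineage that supports the oocytes, and act there on transcription.

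Intensities were scaled alike on all arrays, and array medians ran from 134 to 177. Between ovaries of a group, log2 values correlated with r of 0.957 to 0.980. Foxl2 itself was lower in DKO ovaries (by 2.37 on the log2 scale, adjusted p = 5.55e-06) and in Foxl2 KO ovaries (fell by 2.32, adjusted p = 8.84e-06) than in Control. Runx1 ranged from 11.05 to 11.22 in DKO, 11.21 to 11.58 in Foxl2 KO, 9.89 to 11.07 in Runx1 KO and 11.08 to 11.21 in Control ovaries. None of the 6 Runx1 probe sets passed the test in DKO or Runx1 KO against Control. Where these probe sets lie relative to the floxed segment was not given in the sources used here, so Runx1 does not check the labels of those groups. DKO and Runx1 KO below stand for the ovaries so labelled. Background was read from Y-linked genes, which XX ovaries lack. Of 7 such genes measured, 6 had mean levels from 4.51 to 6.16. The probe set for Sry, of a class that can bind several transcripts, read 8.30 and was left out of the background level after its value was seen.

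Levels are given as log2 of intensity plus 16, and differences on that scale understate changes of dim genes. A gene was called when its adjusted p in limma was under 0.05. Against Control, 1 of the 9 members was called in DKO ovaries, where 2.13% of all genes were called, and 1 of 9 in Foxl2 KO ovaries, where 1.52% of all genes were called. In both comparisons the member was Dhh. In Runx1 KO ovaries 0 of 9 members were called by limma, against 0.121% of all genes. At an unadjusted p under 0.05, 1 member (Dhh) passed there, against 7.34% of all genes, and the one-way analysis of variance with adjustment called 0. The same unadjusted limma threshold passed 3 members as higher in Foxl2 KO ovaries (Dhh, Ihh and Shh, 7.17% of all genes). It passed 1 as lower there (Gli3, 3.82% of all genes). In DKO ovaries it passed 1 as higher (Dhh, 8.19%) and 0 as lower (4.18%). By the looser rule of the methods (an unadjusted analysis of variance p under 0.05 and over 1.5-fold), 1 member passed in DKO (5.97% of all genes), 3 in Foxl2 KO (5.02%) and 1 in Runx1 KO ovaries (2.80%), and 2 passed in DKO (4.13%) and 2 in Foxl2 KO against Runx1 KO (4.00%). The median difference of the 9 members from Control was 0.19 in DKO, -0.17 in Foxl2 KO ovaries and 0.13 in Runx1 KO ovaries, beside 0.04, 0.05 and 0.04 over all genes.

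**Figure D1:**
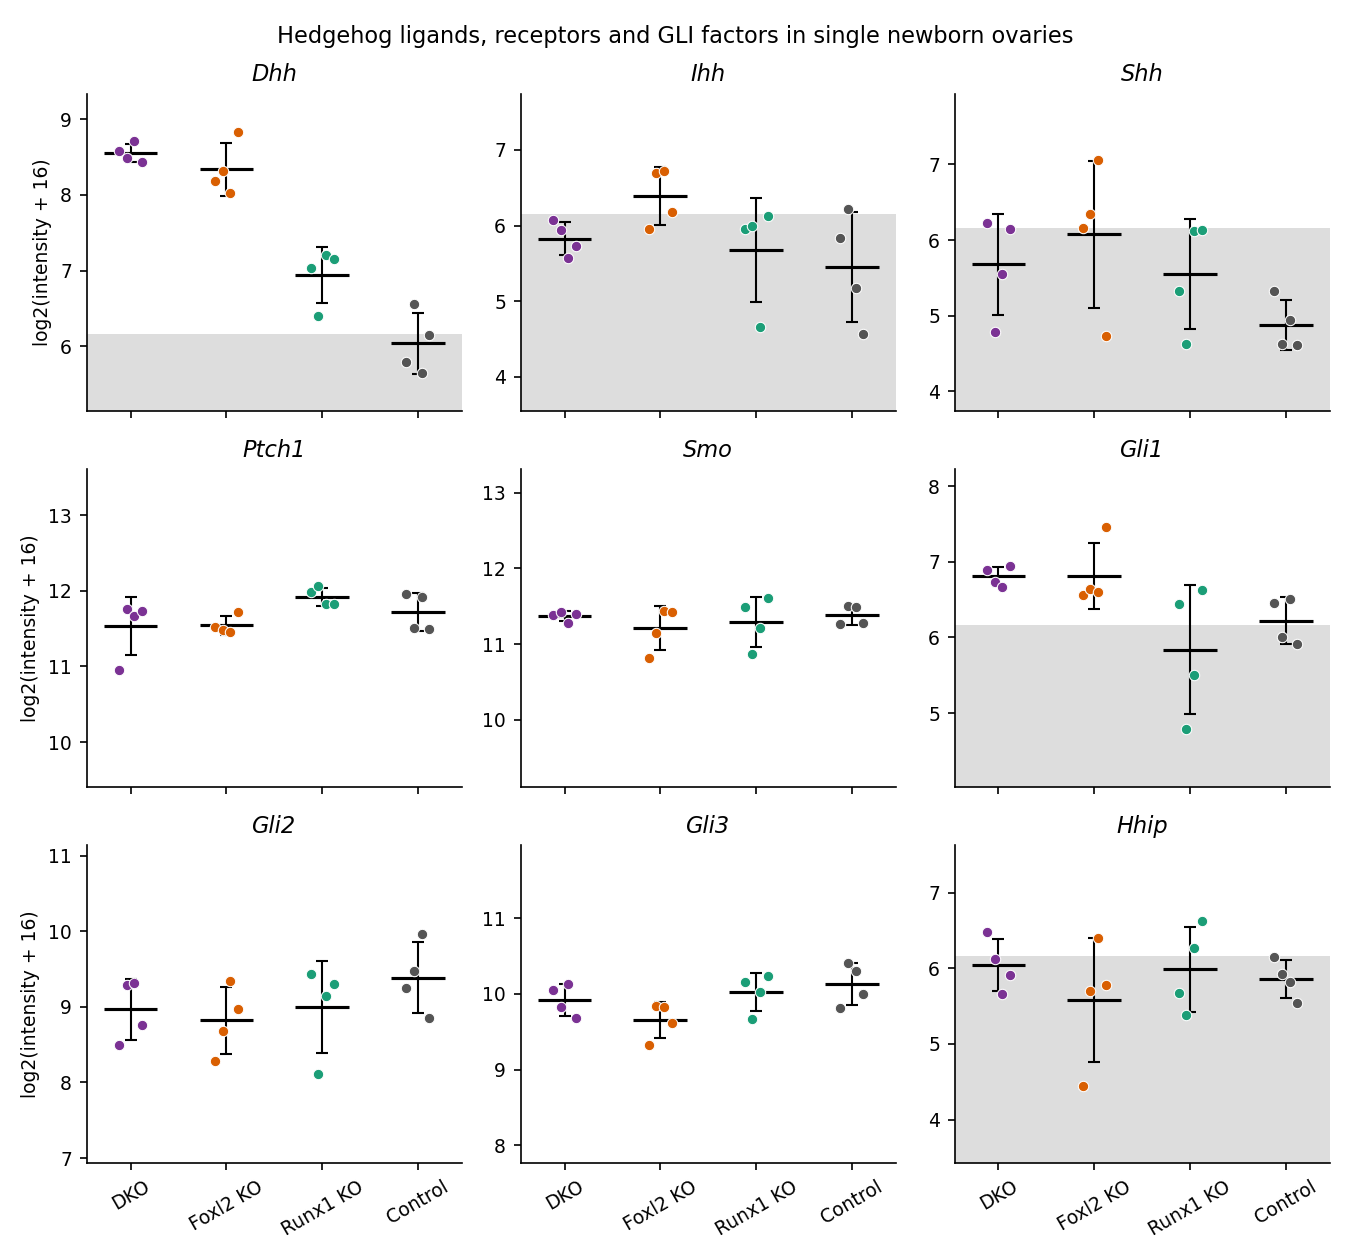
Level of each member in each ovary as log2(intensity + 16), with DKO, Foxl2 KO, Runx1 KO and Control from left to right. Points are ovaries, horizontal bars group means, whiskers the SD (n = 4), and grey marks levels at or below the background of 6.16. Dhh is the member with the widest steps between groups (means of 8.55, 8.34, 6.95 and 6.04), while Ptch1 and Smo lie above 10 in every ovary.

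Dhh, the ligand of Sertoli and granulosa cells, had intensities of 366, 342, 404 and 331 in DKO ovaries and of 274, 302, 245 and 441 in Foxl2 KO ovaries. They were 115, 68.5, 131 and 126 in Runx1 KO ovaries, and 39.6, 78.2, 34.1 and 55.1 in Control ovaries. Every DKO and Foxl2 KO ovary was above every Runx1 KO and Control ovary, and 1 Runx1 KO ovary (68.5) fell within the Control range. On the log2 scale Dhh averaged 8.55 ± 0.12 in DKO, 8.34 ± 0.35 in Foxl2 KO, 6.95 ± 0.37 in Runx1 KO and 6.04 ± 0.41 in Control ovaries (SD, n = 4 each).

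The difference from Control was 2.52 ± 0.22 in DKO ovaries (SE, adjusted p = 1.22e-05), a ratio of 5.72 with a 95% interval of 4.11 to 7.96. It was 2.30 ± 0.22 in Foxl2 KO ovaries (adjusted p = 3.99e-05), a ratio of 4.93 with an interval of 3.54 to 6.86. The Control mean of 6.04 lay below background, so these fitted ratios are not bounds. Measured from the background of 6.16, the ratio of the group mean to Control was at least 5.26 in DKO and 4.54 in Foxl2 KO ovaries. These bounds hold for the means alone and carry no sampling error. Measured from the Sry level the bounds shrink to 1.19-fold in DKO and 1.03-fold in Foxl2 KO ovaries.

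In Runx1 KO ovaries Dhh differed from Control by 0.91 ± 0.22 and did not pass (adjusted p = 0.241, 95% interval 0.43 to 1.39). The rise in Foxl2 KO exceeded the difference in Runx1 KO ovaries, since Dhh was 1.39 ± 0.22 higher in Foxl2 KO than in Runx1 KO ovaries (adjusted p = 0.00439). It was 1.61 ± 0.22 higher in DKO than in Runx1 KO ovaries (adjusted p = 0.00171). Between DKO and Foxl2 KO ovaries Dhh differed by 0.21 ± 0.22 (adjusted p = 1.00), with an interval from -0.26 to 0.69. The interaction, which asks whether loss of Runx1 changed Dhh by another amount when Foxl2 was missing too, was -0.69 ± 0.32 and did not pass (adjusted p = 0.910). In order of level Dhh thus ran DKO, Foxl2 KO, Runx1 KO and Control, and of the neighbours in that order the test separated Foxl2 KO from Runx1 KO.

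A further Dhh probe set did not show this order. Its means were 5.62 in DKO, 6.21 in Foxl2 KO, 5.95 in Runx1 KO and 5.76 in Control ovaries, close to background, and its difference from Control was -0.14 in DKO (adjusted p = 0.893) and 0.45 in Foxl2 KO ovaries (adjusted p = 0.529). On these arrays the Dhh result therefore rests on 1 of 2 probe sets. Which stretch of the transcript each covers was not used here. By quantitative PCR at birth the study reports Dhh as raised in each knockout genotype, most in DKO ovaries. In bulk ovary RNA, more cells with Dhh and more Dhh per cell cannot be told apart.

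In the same comparisons markers of other cell types moved. Of 8 measured Sertoli markers, 4 were higher in DKO ovaries (Sox9, Dmrt1, Cst9 and Fgf9) and 4 in Foxl2 KO ovaries (Sox9, Dmrt1, Cst9 and Hsd17b3), while Fgf9 alone was higher in Runx1 KO ovaries. Aard, also a Sertoli marker, went the other way in the single knockouts but was not called lower. It averaged 11.60 in DKO, 10.68 in Foxl2 KO, 11.05 in Runx1 KO and 11.54 in Control ovaries. Every Foxl2 KO and Runx1 KO ovary (at most 11.11 and 11.15) was below every Control ovary (at least 11.27) for Aard. The mean deviation of the Sertoli list ran from 0.28 to 0.57 in DKO, -0.02 to 0.59 in Foxl2 KO, -0.45 to -0.08 in Runx1 KO and -0.79 to -0.34 in Control ovaries. Of 10 pre-granulosa markers, 5 were lower in DKO ovaries (Foxl2, Fst, Kitl, Esr2 and Nr5a2) and 4 of these, without Fst, in Foxl2 KO ovaries. Schwann cells of nerves also make DHH, and 0 of their 5 measured markers were called in any comparison, with list deviations of -0.44 to 0.11 in DKO, 0.02 to 0.37 in Foxl2 KO, -0.02 to 0.22 in Runx1 KO and -0.13 to -0.08 in Control ovaries. Among 5 measured mesonephric markers, Pax8 was higher in DKO (by 2.23) and Foxl2 KO ovaries (by 1.74), and the list deviation ran from 0.10 to 0.66 in DKO, 0.07 to 0.13 in Foxl2 KO, -0.47 to 0.16 in Runx1 KO and -0.75 to -0.0021 in Control ovaries. Erythroid genes were high in 1 Control ovary (replicate 4, deviation 3.94) and between -0.56 and -0.11 in the other 15. Of 8 endothelial, 8 stromal and 10 oocyte markers, the one called was Kdr, an endothelial receptor, in Foxl2 KO against Runx1 KO ovaries (0.81, adjusted p = 0.0336). In each list the 2 markers with the smallest p in DKO among those called nowhere differed from Control there by 0.46 (Amh) and -0.64 (Ptgds) for Sertoli cells, 0.79 (Wnt4) and 0.52 (Rspo1) for pre-granulosa cells, -0.53 (Mbp) and -0.18 (Erbb3) for Schwann cells, and 0.70 (Cdh16) and 0.49 (Lhx1) for the mesonephros. The other mesonephric markers, Ret and Wnt9b, differed by -0.60 and -0.0052 in DKO ovaries, and Lhx1, Ret and Wnt9b were at background in all 4 groups. The differences in DKO were 0.59 (Hba-a1) and -2.0004 (Slc4a1) for red cells, -0.66 (Oosp1) and -0.39 (Sohlh1) for oocytes, 0.28 (Col3a1) and 0.31 (Col1a1) for stroma, and -0.43 (Pecam1) and 0.29 (Cldn5) for endothelium. The part of these cell types in the Dhh difference was not tested.

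**Figure D2:**
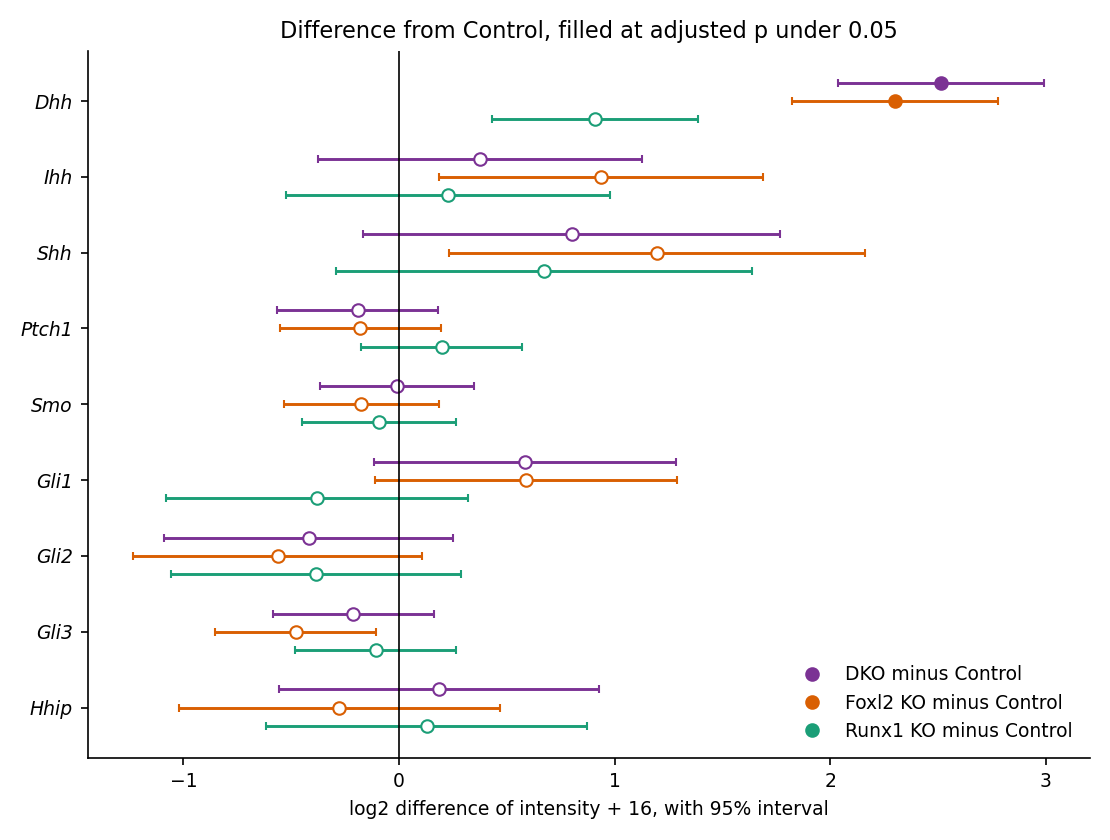
Difference of each member from Control on the log2 scale of intensity plus 16, with DKO above Foxl2 KO above Runx1 KO. Points are limma estimates from 4 ovaries per group, lines are 95% intervals, and filled points passed at an adjusted p under 0.05. Dhh in DKO (2.52) and Foxl2 KO ovaries (2.30) holds both filled points, and the intervals of Ptch1 and Smo lie between -0.57 and 0.57.

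The other ligands were dim. Ihh, which granulosa cells share with Dhh, had levels of 6.07, 5.95, 5.57 and 5.73 in DKO, 5.95, 6.70, 6.72 and 6.18 in Foxl2 KO, 5.96, 5.99, 4.66 and 6.12 in Runx1 KO, and 5.83, 6.23, 5.18 and 4.57 in Control ovaries. The Foxl2 KO mean of 6.39 was the one group mean of Ihh above background, and its range overlapped with that of Control. The difference from Control was 0.38 ± 0.35 in DKO (adjusted p = 0.735), 0.94 ± 0.35 in Foxl2 KO ovaries (adjusted p = 0.305) and 0.23 ± 0.35 in Runx1 KO ovaries (adjusted p = 0.911). Shh, the ligand of many epithelia outside the gonad, was at background in all 4 groups by both of its probe sets. Its mean was 5.68 ± 0.66 in DKO, 6.08 ± 0.98 in Foxl2 KO, 5.55 ± 0.72 in Runx1 KO and 4.88 ± 0.33 in Control ovaries (SD, n = 4 each), and no difference from Control passed (adjusted p = 0.522 in DKO, 0.307 in Foxl2 KO ovaries and 0.783 in Runx1 KO ovaries).

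Ptch1, the receptor and a target of the pathway, did not show the Dhh pattern. Its levels were 10.96, 11.76, 11.66 and 11.74 in DKO ovaries, 11.53, 11.48, 11.45 and 11.72 in Foxl2 KO ovaries, 11.99, 12.06, 11.82 and 11.82 in Runx1 KO ovaries, and 11.96, 11.51, 11.92 and 11.50 in Control ovaries. All 3 knockout groups overlapped with Control. The difference from Control was -0.19 ± 0.18 in DKO (adjusted p = 0.725), -0.18 ± 0.18 in Foxl2 KO ovaries (adjusted p = 0.783) and 0.20 ± 0.18 in Runx1 KO ovaries (adjusted p = 0.838). The upper ends of the 95% intervals were 0.18 in DKO and 0.19 in Foxl2 KO ovaries. These are ratios of 1.13 and 1.14 for this probe set. The DKO limit leans on replicate 1 (10.96, the next at 11.66). With 1 ovary left out at a time, the DKO difference ran from -0.27 to -0.00075, the last without that replicate. Every Runx1 KO ovary was above every DKO and Foxl2 KO ovary, by means of 0.39 and 0.38, but neither difference passed (DKO minus Runx1 KO -0.39, adjusted p = 0.500, and Foxl2 KO minus Runx1 KO -0.38, adjusted p = 0.559). The 2 dimmer Ptch1 probe sets, with group means between 6.51 and 6.89, did not pass either and set no such limit. One differed from Control by 0.39 ± 0.41 in DKO and 0.16 ± 0.41 in Foxl2 KO ovaries (SE), and the other by -0.0024 ± 0.25 in DKO and 0.07 ± 0.25 in Foxl2 KO ovaries.

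Smo, which carries the signal across the membrane, ranged from 11.28 to 11.42 in DKO, 10.82 to 11.44 in Foxl2 KO, 10.86 to 11.60 in Runx1 KO and 11.26 to 11.50 in Control ovaries. Its difference from Control was -0.01 ± 0.17 in DKO, -0.17 ± 0.17 in Foxl2 KO ovaries and -0.09 ± 0.17 in Runx1 KO ovaries, and none passed. The groups overlapped throughout for this probe set. Dimmer Smo probe sets differed from Control by 0.14 and 0.60 in DKO (adjusted p = 0.868 and 0.600). In Foxl2 KO ovaries they differed by 0.13 and 0.43 (adjusted p = 0.897 and 0.788), and in Runx1 KO ovaries by -0.02 and 0.34 (adjusted p = 0.995 and 0.921).

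Gli1, the transcription factor whose mRNA rises with hedgehog signalling in many tissues, was the member nearest to the Dhh pattern. Its levels were 6.89, 6.73, 6.66 and 6.94 in DKO ovaries, 6.55, 6.63, 6.60 and 7.45 in Foxl2 KO ovaries, 6.44, 4.79, 5.50 and 6.63 in Runx1 KO ovaries, and 6.46, 6.002, 6.51 and 5.91 in Control ovaries. Every DKO and Foxl2 KO ovary was above every Control ovary, the lowest Foxl2 KO ovary (6.55) lying just past the highest Control ovary (6.51). The difference from Control was 0.59 ± 0.33 in DKO (adjusted p = 0.518, 95% interval -0.11 to 1.29) and 0.59 ± 0.33 in Foxl2 KO ovaries (adjusted p = 0.556, interval -0.11 to 1.29), so neither passed. In Runx1 KO ovaries it was -0.38 ± 0.33 (adjusted p = 0.834), with 2 of the 4 ovaries below background there and 2 of 4 in Control. With 1 ovary left out at a time, the Foxl2 KO difference from Control ran from 0.38 to 0.69. The low end came without Foxl2 KO replicate 4 (7.45). The DKO difference from Control ran from 0.48 to 0.68.

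Against Runx1 KO, Gli1 was 0.97 ± 0.33 higher in DKO (adjusted p = 0.274) and 0.97 ± 0.33 higher in Foxl2 KO ovaries (adjusted p = 0.270), and neither passed. The Runx1 KO mean of 5.84 lay below background, and measured from 6.16 Gli1 was at least 1.57-fold higher in DKO and in Foxl2 KO ovaries. Measured from the Sry level, Gli1 was at background in all 4 groups and has no such bound. Of the 9 members, 1 was called in DKO against Runx1 KO (0.989% of all genes) and 1 in Foxl2 KO against Runx1 KO (1.26% of all genes), Dhh in both. Between DKO and Foxl2 KO ovaries 0 members were called by limma (0.0605% of all genes). At an unadjusted p under 0.05 there were 0 of 9, against 5.38% of all genes, and the analysis of variance called 0. In the interaction 0 were called (0.0110% of all genes), and 1 member, Dhh, was under 0.05 without adjustment, against 5.33% of all genes.

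By the plain criterion that 4 ovaries lie beyond the other 4, Dhh and Gli1 stood above Control in DKO, 2 of 9 members where 7.61% of all genes did not overlap in either direction. The same 2 members stood above Control in Foxl2 KO (6.72% of all genes), and 0 members were separate in Runx1 KO (3.97%). Against Runx1 KO, Dhh, Gli1 and Ptch1 were separate in DKO (5.93% of all genes) and Dhh and Ptch1 in Foxl2 KO (5.88%), with Ptch1 the lower one in each. DKO and Foxl2 KO overlapped for all 9 members (3.57% of all genes did not).

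**Figure D3:**
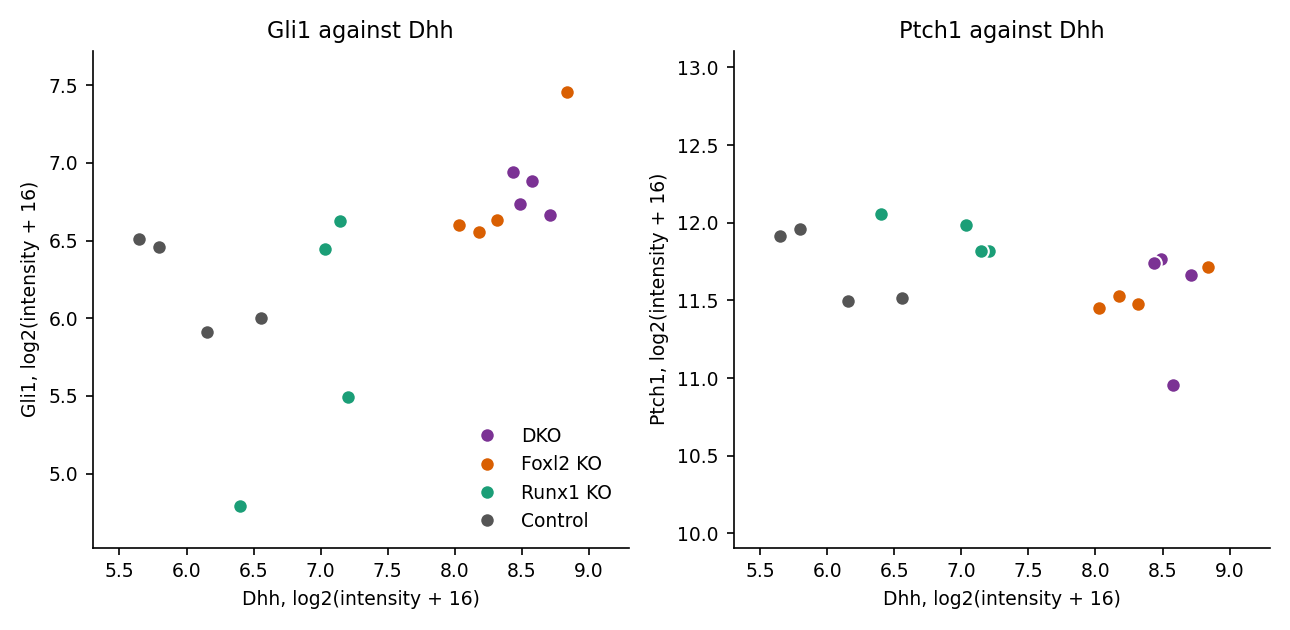
Gli1 (left) and Ptch1 (right) against Dhh in the 16 ovaries, all as log2(intensity + 16), coloured by genotype. DKO and Foxl2 KO ovaries lie at the right, with Gli1 from 6.55 to 7.45 and Ptch1 from 10.96 to 11.76, and Control ovaries at the left, with Gli1 from 5.91 to 6.51 and Ptch1 from 11.50 to 11.96.

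Gli2 and Gli3, which carry the signal as activator and repressor before Gli1 is made, were well above background and not called in any group. Gli2 ranged from 8.50 to 9.32 in DKO, 8.29 to 9.34 in Foxl2 KO, 8.11 to 9.44 in Runx1 KO and 8.85 to 9.97 in Control ovaries. Its difference from Control was -0.42 ± 0.32 in DKO, -0.56 ± 0.32 in Foxl2 KO ovaries and -0.39 ± 0.32 in Runx1 KO ovaries (adjusted p = 0.655, 0.560 and 0.825 in that order). Gli3 ranged from 9.67 to 10.13 in DKO, 9.32 to 9.84 in Foxl2 KO, 9.67 to 10.24 in Runx1 KO and 9.81 to 10.41 in Control ovaries. In Foxl2 KO ovaries Gli3 differed by -0.48 ± 0.18 from Control and did not pass (adjusted p = 0.282), and its 2 other probe sets gave -0.06 and -0.02 there. Hhip, which binds ligand outside the cell and is itself a target, was at background in all groups by each of its 4 probe sets, with means of 6.04 in DKO, 5.58 in Foxl2 KO, 5.99 in Runx1 KO and 5.86 in Control ovaries, so it gives no reading of the pathway here.

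Over the 16 ovaries the Pearson correlation with Dhh was 0.60 for Gli1 and -0.48 for Ptch1. The Spearman correlation, which uses ranks, was 0.81 for Gli1 and -0.46 for Ptch1. These values carry no test, since the ovaries share 4 genotypes and the 2 groups high in Dhh shape them. The 5 genes most like Dhh over the 16 ovaries by Pearson r were Nr0b1 (r = 0.944), Gfra1 (0.938), Slc52a3 (0.931), Prkg2 (0.927) and Ppargc1b (0.925). Their Spearman correlations ran from 0.84 (Prkg2) to 0.92 (Ppargc1b). Nr0b1, the nuclear receptor DAX1, averaged 10.30 ± 0.21 in DKO, 9.93 ± 0.23 in Foxl2 KO, 8.52 ± 0.26 in Runx1 KO and 8.01 ± 0.34 in Control ovaries (SD, n = 4 each). Gfra1, a receptor for GDNF, averaged 8.28 ± 0.16 in DKO, 8.16 ± 0.18 in Foxl2 KO, 7.39 ± 0.43 in Runx1 KO and 6.61 ± 0.46 in Control ovaries.

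The promoters of the members were set beside these values, because RUNX1 and FOXL2 are factors that bind DNA and GLI factors act on hedgehog targets. RefSeq promoters on GRCm38.p6 were given for 7 of the 9 members, all but Gli1 and Shh. In the 250 bases before each start, 3 motifs were searched on both strands with exact letters, the GLI 9-mer GACCACCCA, the RUNX core TGTGGT and the forkhead core TGTTTAC. The GLI 9-mer was in 0 of the 7 windows and in 0.225% of 32851 promoters, the RUNX core in 1 of 7 and 14.0%, and the forkhead core in 0 of 7 and 3.17%. The one match was in Gli3, on the minus strand relative to the gene, from 120 to 115 bases before the start. Shown are Dhh (chr15:98898541-98898790, minus strand), the member that rose, Ptch1 (chr13:63565736-63565985, minus strand), the target that was not called, and Gli3 (chr13:15463473-15463722, plus strand), with the RUNX match in capitals.
Dhh: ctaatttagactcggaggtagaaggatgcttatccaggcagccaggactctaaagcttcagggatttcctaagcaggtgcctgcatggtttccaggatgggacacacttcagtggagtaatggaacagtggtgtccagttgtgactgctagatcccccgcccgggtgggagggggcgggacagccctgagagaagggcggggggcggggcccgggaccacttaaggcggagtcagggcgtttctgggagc
Ptch1: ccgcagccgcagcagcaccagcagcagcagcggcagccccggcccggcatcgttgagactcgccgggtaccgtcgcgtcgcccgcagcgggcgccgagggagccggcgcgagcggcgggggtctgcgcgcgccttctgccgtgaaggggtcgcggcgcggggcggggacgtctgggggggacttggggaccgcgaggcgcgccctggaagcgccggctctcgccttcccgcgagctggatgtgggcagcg
Gli3: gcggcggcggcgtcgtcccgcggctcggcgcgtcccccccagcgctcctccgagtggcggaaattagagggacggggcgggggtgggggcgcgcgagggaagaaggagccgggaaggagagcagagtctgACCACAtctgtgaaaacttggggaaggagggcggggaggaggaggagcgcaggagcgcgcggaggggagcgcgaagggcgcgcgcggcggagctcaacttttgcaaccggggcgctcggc
The Dhh and Ptch1 windows have no capitals, since none of these letters is in them. A match is a string of letters and not a measured site, and no match says only that the letters are not in this window.

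Other genes of the pathway were read from a list of 36, of which 33 were measured, and the other 3 were not analysed here. Against Control, 2 were called higher in DKO, 1 in Foxl2 KO ovaries and 1 in Runx1 KO ovaries. By limma 0 were called lower in any of the 3. Of all genes, 2.13%, 1.52% and 0.121% were called in that order, in either direction. At an unadjusted p under 0.05, 6 of 33 were higher (8.19% of all genes) and 1 lower (4.18%) in DKO ovaries. In Foxl2 KO ovaries 5 were higher (7.17% of all genes) and 1 lower (3.82%), and in Runx1 KO ovaries 2 were higher (4.62%) and 0 lower (2.72%). The median difference of the list was 0.19 in DKO, 0.11 in Foxl2 KO ovaries and -0.01 in Runx1 KO ovaries, beside 0.04, 0.05 and 0.04 over all genes.

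The called genes were Mycn and Ccnd1, growth genes that hedgehog signalling induces in cerebellar precursors and that other pathways induce too. Mycn had levels of 11.32, 11.32, 11.21 and 11.43 in DKO, 11.14, 10.98, 10.95 and 11.11 in Foxl2 KO, 11.002, 11.01, 10.68 and 10.93 in Runx1 KO, and 10.15, 10.41, 10.35 and 9.96 in Control ovaries. Every knockout ovary was above every Control ovary. The difference from Control was 1.10 ± 0.12 in DKO (adjusted p = 9.81e-05), 0.83 ± 0.12 in Foxl2 KO ovaries (adjusted p = 0.00195) and 0.69 ± 0.12 in Runx1 KO ovaries (adjusted p = 0.0438), and the last was lost when any of 15 of the 16 ovaries was left out.

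Ccnd1, a cyclin of the G1 phase, had levels of 10.33, 10.21, 10.18 and 9.85 in DKO, 9.65, 10.00, 9.75 and 10.55 in Foxl2 KO, 10.30, 9.45, 9.76 and 9.56 in Runx1 KO, and 8.97, 9.46, 9.25 and 9.14 in Control ovaries. Every DKO and Foxl2 KO ovary was above every Control ovary, and 1 Runx1 KO ovary was not. The difference from Control was 0.94 ± 0.21 in DKO (adjusted p = 0.0307), 0.78 ± 0.21 in Foxl2 KO ovaries (adjusted p = 0.1002) and 0.56 ± 0.21 in Runx1 KO ovaries (adjusted p = 0.578). The DKO call was lost without DKO replicate 1, 2 or 3 and without Control replicate 1, 3 or 4.

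The remaining pathway genes were not called in any of the 7 comparisons. Among the other receptors were Boc, a co-receptor, and Gpc3, a glypican that binds ligand. They differed from Control by 0.49 and 0.34 in DKO (adjusted p = 0.330 and 0.375). In Foxl2 KO ovaries they differed by 0.49 and 0.42 (adjusted p = 0.392 and 0.277). Cdon ranged from 10.01 to 11.46 in DKO, 10.92 to 11.03 in Foxl2 KO and 9.54 to 10.38 in Control ovaries. Its Foxl2 KO difference of 0.85 was the highest of the 33 genes. Gas1 differed by -0.07 in DKO and -0.21 in Foxl2 KO ovaries. Among signal transducers, Evc2, a partner of SMO at the cilium, differed by 0.52 in DKO (adjusted p = 0.149), and Gpr161, a ciliary receptor that restrains the pathway, by -0.56 in DKO (adjusted p = 0.225) and -0.76 in Foxl2 KO ovaries (adjusted p = 0.0835). For ligand release, Scube2 and Hhat, which free and acylate the ligands, differed by 0.19 and 0.15 in DKO ovaries. For the cilium, where the pathway is assembled, Ift88 and Tulp3 differed by 0.40 and 0.24 there. Of the target genes from other tissues, Bmp4 and Foxf1 differed by -0.60 and 0.24 in DKO ovaries (adjusted p = 0.495 and 0.795).

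**Figure D4:**
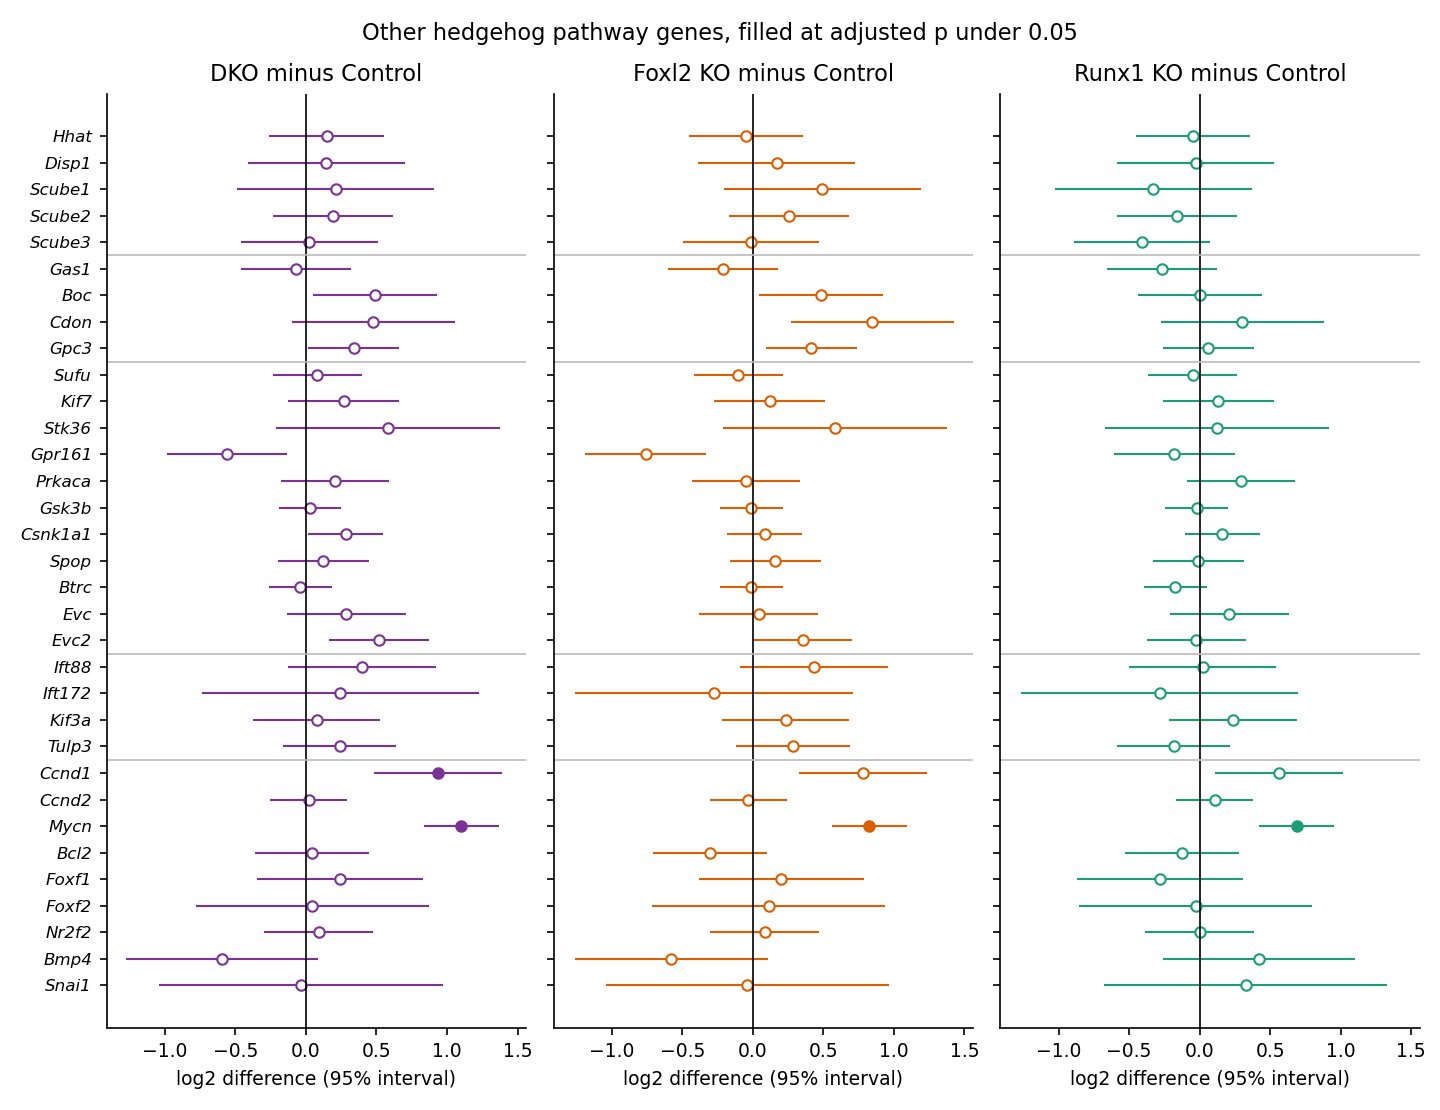
Difference from Control on the log2 scale for the 33 other pathway genes in DKO, Foxl2 KO and Runx1 KO ovaries, from left to right. Grey lines part ligand release, other receptors, signal transduction, cilium and target genes from top to bottom, lines through points are 95% intervals, and filled points passed at an adjusted p under 0.05. Mycn is filled in all 3 panels (1.10, 0.83 and 0.69) and Ccnd1 in the DKO panel (0.94).

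Steroidogenic cells are known responders to DHH in the testis and to DHH and IHH in the ovary. Of 8 genes listed for these cells, 5 were measured. Nr5a1 is active in somatic cells of the gonad more widely, and bulk RNA does not place these genes in one cell type. Whether their differences lay in responding cells was not tested. Hsd3b1, a steroid dehydrogenase, ranged from 8.71 to 9.62 in DKO, 9.31 to 9.95 in Foxl2 KO, 9.72 to 10.20 in Runx1 KO and 11.21 to 11.66 in Control ovaries. All 12 knockout ovaries were below the Control ovaries, with differences of -2.19 in DKO (adjusted p = 1.71e-05), -1.86 in Foxl2 KO ovaries (adjusted p = 0.000131) and -1.53 in Runx1 KO ovaries (adjusted p = 0.00382). Nr5a1, the regulator whose promoter drives the Cre, was 1.34 higher in DKO than in Control ovaries (adjusted p = 8.63e-05). It was 0.96 higher in DKO than in Foxl2 KO ovaries (adjusted p = 0.0215). Nr5a1 averaged 10.68 in DKO, 9.71 in Foxl2 KO, 10.11 in Runx1 KO and 9.34 in Control ovaries. The Runx1 KO difference from Control was 0.77 and was not called. DKO and Runx1 KO ovaries, which carried the transgene, had the higher means, and Runx1 loss and the transgene cannot be told apart. Cyp11a1, the first enzyme of steroid synthesis, and Cyp17a1, of androgen synthesis, differed from Control by -0.66 (adjusted p = 0.269) and 0.26 (adjusted p = 0.805) in DKO ovaries, and Cyp17a1 was at background in all groups.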

How the data were processed

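RNA of single newborn ovaries was amplified and hybridised to Affymetrix Mouse Genome 430 2.0 arrays. The deposited values are linear intensities, which the authors summarised per probe set with Affymetrix Expression Console 1.2 and which have the same mean on every array once 2% is trimmed at each end. The algorithm behind these linear values is not given in the sources used here. The methods name RMA log2 values for the analysis of variance of the study, and the deposited values, linear and scaled to a trimmed mean, are not on that scale. After 16 was added, log2 was taken, and limma 3.58.1 (lmFit and eBayes, R 4.3.3, statmod 1.5.0) was fitted with 4 group means to 18193 genes, with 12 residual and 3.32 prior degrees of freedom. Tests were two-sided, and p-values were adjusted by Benjamini-Hochberg over all genes of a comparison. The fit was tested on simulated data. Precision is limited by 4 arrays per group, with a median SE of 0.20 for a difference. Of the probe sets, 34945 had 1 gene, 932 several and 9160 none, and 64 were controls.

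The members, the gene lists and the tests were chosen with earlier results of these data known. Values were given for all members, for each listed gene called in any comparison, for the 2 uncalled genes of each role with the smallest p in DKO against Control, and for the 5 genes most like Dhh by Pearson r. Aard, Ret, Wnt9b, Cdon and Gas1 were added to these after their values were seen. For a list deviation, each gene was centred on its 16-array mean and the list's centred values were averaged per ovary. A level at or below that of the Y-linked genes counted as background. The rule had set this at their highest mean, that of Sry, and the next was used instead after the values were seen. The lists covered hedgehog genes, steroidogenic cells and markers of Sertoli, pre-granulosa, Schwann, endothelial, stromal, oocyte, erythroid and mesonephric cells. Promoter sequences were taken from RefSeq, cut to the 250 bases before the start. Alternatives changed the offset, the scaling, the choice of probe sets, the filter, the model and the arrays used. Figures were drawn with matplotlib.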

Additional observations from a re-analysis of the deposited data

Results flagged for a closer look

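The first such result is Dhh, because its change in Foxl2 KO ovaries exceeded that in Runx1 KO ovaries in a test of the difference itself (1.39 ± 0.22 on the log2 scale, adjusted p = 0.00439), with every Foxl2 KO ovary above every Runx1 KO ovary. Both changes share the Control ovaries, which cancel in that test. In 3 of 36 groups of 4 ovaries, 1 ovary stood far from the other 3 by the ratio of the gap to the range, past Dixon's 95% critical value, where chance marks about 1 in 20 groups. Ptch1 was low in DKO replicate 1 (10.96, the next at 11.66). Gli1 was high in Foxl2 KO replicate 4 (7.45, the next at 6.63), which was also the Foxl2 KO ovary with the highest Dhh (8.84). Ihh was low in Runx1 KO replicate 3 (4.66, the next at 5.96), a level at background.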

How the results depend on the processing

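Dhh was called in DKO and in Foxl2 KO against Control under every alternative that gave it a value and in each of the 16 fits without 1 ovary, with differences of 1.19 to 2.87 in DKO and 1.38 to 2.65 in Foxl2 KO ovaries over the alternatives. The low ends came from the mean of all probe sets, which averages in the Dhh probe set that stayed near background. That mean also took Dhh in DKO against Runx1 KO to 0.64 (adjusted p = 0.0916), so 0 members were called there. With genes above the median level alone, 0 members were called in DKO and in Foxl2 KO against Control or against Runx1 KO, because Dhh lies under that level and was not tested. The methods' rule (unadjusted analysis of variance p under 0.05 and over 1.5-fold) passed 1 member in Runx1 KO (Dhh, 0.91), 3 in Foxl2 KO against Control (Dhh, Ihh and Shh), and 2 in DKO and in Foxl2 KO against Runx1 KO (Dhh and Gli1). Equal replicate numbers were not taken to pair ovaries, since 1 of 24 same-numbered pairs had a residual correlation above 0.1, and a replicate block changed no call of a member (Dhh 2.52 in DKO, adjusted p = 0.000143).

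Differences that passed in no fit changed sign as follows. With the mean of all probe sets, Ptch1 was 0.064 in DKO and 0.019 in Foxl2 KO, Smo was 0.25 in DKO, 0.13 in Foxl2 KO ovaries and 0.077 in Runx1 KO, Gli3 was 0.038 in Runx1 KO, and Dhh in DKO against Foxl2 KO -0.19. Gli1 in DKO against Foxl2 KO was 0.0014 with no offset or a floor of 16, 0.032 with equal medians, 0.022 with quantiles and 0.011 with array weights, and Ihh in Runx1 KO was -0.011 with array weights. Leaving out 1 ovary at a time gave -0.065 to 0.57 for Ihh, -0.20 to 0.050 for Smo, -0.22 to 0.0094 for Gli3 and -0.084 to 0.33 for Hhip in Runx1 KO, -0.55 to 0.10 for Hhip in Foxl2 KO, -0.050 to 0.031 for Smo in DKO, and -0.091 to 0.21 for Gli1 in DKO against Foxl2 KO.

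Among pathway genes, Mycn in Runx1 KO was lost in 8 of 15 alternatives (adjusted p of 0.133 with the replicate block) and Mycn in Foxl2 KO with the mean of all probe sets (adjusted p = 0.108). Ccnd1 in DKO was lost with equal medians (adjusted p = 0.0509), the replicate block (0.0810) and the adjusted analysis of variance (0.0599). Ccnd1 in Foxl2 KO was gained with the mean of all probe sets (adjusted p = 0.0385), genes above the median level (0.0474), the trended robust prior (0.04995) and the methods' rule, and the pathway genes called there ran from 1 to 4. Dim members limit what can be read. Shh and Hhip were at background, Gli1 and Ihh close to it, and the 95% interval of Gli1 in DKO ran from -0.11 to 1.29.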
